A study of Mus musculus with 12 samples.

Results

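The lysosome breaks down what a cell takes up or no longer needs, and the 42 genes described here encode parts of it. They were chosen by name from 30268 genes in the expression table, with earlier results of these data known but by no cut on their values. They comprise 6 genes of the membrane (V0) sector and 8 of the soluble (V1) sector of the vacuolar proton pump (V-ATPase), 2 accessory pump subunits, 9 cathepsins, 5 glycosidases, 5 lipid hydrolases and their cofactors, 4 membrane proteins and 3 MiT transcription factors. All 42 were found and all passed the filter on low values that left 14340 genes for testing.

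Gonadal white adipose tissue came from male C57BL/6 mice, wild type (WT) or knockout (KO) for the microRNA miR-10a. Feeding lasted 16 weeks from 8 weeks of age, with either normal chow (NCD) or high-fat chow (HFD) given. The 4 groups, WT on NCD, KO on NCD, WT on HFD and KO on HFD, had 3 biological replicates each, and how the knockout allele was made, or in which cells, is not given in the sources used here. Levels are FPKM (fragments scaled by transcript length and by all mapped fragments), so levels of different genes can be compared per length within a library, but the depth of each library is unknown. Libraries are named by group and by the number in the table's header, such as KO_HFD 8.

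The V-ATPase pumps protons into the lysosome and keeps its interior acid, which most lysosomal hydrolases need. Cathepsins are proteases, the glycosidases trim sugars from glycoproteins and glycolipids, and acid lipase and ceramidase act on lipids that reach the lysosome. TFEB, TFE3 and MITF bind E-box motifs in promoters of many lysosomal genes and can raise their transcription. In obese adipose tissue, macrophages gather around dying adipocytes and take up their lipid, and macrophages are rich in lysosomes.

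The RefSeq promoter table (GRCm38.p6; 250 bases before to 50 after the annotated start) held 34 of the 42 members. Motifs were searched on both strands. The E-box CACGTG, the core of the sites bound by MiT factors, was present in 11 of the 34, or 32.4%, beside 8.09% of 27025 genes in that table. The longer form TCACGTG, which contains the E-box, was present in 10 of 34, or 29.4%, beside 4.29% of all genes. The exact 10-base CLEAR element was present in 0 of 34 and in 0.37% of all genes. Promoters of 5 members are shown, 3 that hold the E-box and those of the protease Ctsk and the lipase Lipa, which do not hold it and rose most among members with a promoter in the table besides Ctss. They were chosen after the values were seen. Letters run 5′ to 3′ on the gene's strand, and capitals mark each CACGTG.
Lamp1 (+ strand, chr8:13158911-13159210): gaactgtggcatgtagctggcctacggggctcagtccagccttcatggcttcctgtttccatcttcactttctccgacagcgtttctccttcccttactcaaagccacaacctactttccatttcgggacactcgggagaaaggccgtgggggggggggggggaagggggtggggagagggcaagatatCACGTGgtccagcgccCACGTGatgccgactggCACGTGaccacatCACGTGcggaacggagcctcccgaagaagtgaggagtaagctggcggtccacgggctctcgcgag
Mcoln1 (+ strand, chr8:3500269-3500568): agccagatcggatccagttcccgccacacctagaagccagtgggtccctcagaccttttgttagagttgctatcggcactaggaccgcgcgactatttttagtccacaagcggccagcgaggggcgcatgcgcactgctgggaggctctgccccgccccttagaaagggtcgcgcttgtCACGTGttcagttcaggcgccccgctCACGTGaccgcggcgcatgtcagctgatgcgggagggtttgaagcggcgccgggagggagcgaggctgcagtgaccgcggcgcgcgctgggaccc
Ctsa (+ strand, chr2:164833523-164833822): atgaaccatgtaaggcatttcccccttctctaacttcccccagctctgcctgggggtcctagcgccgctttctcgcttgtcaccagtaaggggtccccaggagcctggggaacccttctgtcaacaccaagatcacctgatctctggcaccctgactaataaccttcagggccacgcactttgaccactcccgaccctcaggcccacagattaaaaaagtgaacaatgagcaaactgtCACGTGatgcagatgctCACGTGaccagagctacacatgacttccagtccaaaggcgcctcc
Ctsk (+ strand, chr3:95498960-95499259): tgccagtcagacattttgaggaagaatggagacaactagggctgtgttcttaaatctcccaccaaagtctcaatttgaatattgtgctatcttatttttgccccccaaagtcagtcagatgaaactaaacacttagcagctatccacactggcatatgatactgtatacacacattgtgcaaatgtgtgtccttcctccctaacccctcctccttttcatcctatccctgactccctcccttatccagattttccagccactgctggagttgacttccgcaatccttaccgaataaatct
Lipa (- strand, chr19:34527425-34527724): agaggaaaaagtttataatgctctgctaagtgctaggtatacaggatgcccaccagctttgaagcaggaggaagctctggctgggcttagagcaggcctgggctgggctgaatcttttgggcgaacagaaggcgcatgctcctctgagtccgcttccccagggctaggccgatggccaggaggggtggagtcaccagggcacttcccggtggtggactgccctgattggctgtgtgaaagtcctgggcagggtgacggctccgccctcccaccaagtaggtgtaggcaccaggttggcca
The Lamp1 promoter held 4 E-boxes, starting 61, 45, 28 and 15 bases before the start. Mcoln1 held 2, at 71 and 45 bases before it, and Ctsa held 2 in the promoter shown, at 12 bases before the start and at base 6 after it. A second listed promoter of Ctsa held none. The other 8 members with an E-box were Atp6v0b, Atp6v0d1, Atp6v0e, Atp6v1a, Ctsd, Ctsl, Gaa and Glb1. These matches are descriptions of letters in a window and were not tested as binding sites.

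Over the whole table, summed FPKM ran from 420130 to 455430 a library on NCD and from 383630 to 413420 on HFD. Between 12859 and 13667 genes reached 1 FPKM. Mitochondrially encoded transcripts took 14.6% to 17.5% of FPKM on NCD and 7.52% to 13.1% on HFD, least in KO_HFD 8. Summed FPKM and the mitochondrial share thus differed between diets without overlap. The gene of the deleted microRNA, Mir10a, was at 0.0221 to 0.425 FPKM in WT and 0.0813 to 0.276 in KO, and such mRNA libraries do not measure the mature microRNA, so this checks nothing. WT_NCD 2, WT_NCD 4 and KO_NCD 2 had sums of 89.6 to 134 FPKM over 9 ciliated epithelium markers, against 32.2 to 52.3 in the other 9 libraries. Leaving these 3 out keeps WT_NCD 1 as the only WT library on NCD, so no counts of calls are given for that fit. Log2 differences that turned sign without them are given below.

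Most lysosomal transcripts were higher on HFD in both genotypes. In WT, 36 of 42 members were higher on HFD, 1 was lower and 5 did not pass the test (limma on log2(FPKM + 1), BH-adjusted p below 0.05). Among all tested genes, 25.4% were higher and 25.3% lower in that comparison. In KO, 38 members were higher, 1 was lower and 3 did not pass, with 34.6% of all tested genes higher and 26.2% lower. The members' median log2 difference was 0.85 in WT, beside -0.03 over all tested genes, and 1.25 in KO, beside 0.04. The 2 diet comparisons share no library, but all 12 libraries gave a common estimate of spread per gene, so their tests are not independent.

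As a share of all FPKM in a library, the 42 members together took 0.739% to 0.818% in WT on NCD and 0.695% to 0.808% in KO on NCD. On HFD they took 1.94% to 2.55% in WT and 2.61% to 3.56% in KO, so no HFD library came near an NCD library. With quantile normalization the median of all genes in the KO diet comparison moved from 0.04 to -0.07 and with median centring to -0.11, and 38 and 34 members were then called higher. Under these scalings 3989 genes were higher and 4814 lower, and 3824 and 5188, in place of 4967 and 3763.

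Markers of macrophages moved with the lysosomal genes. Of 15 macrophage markers, 13 were higher and 2, Mertk and Cd163, lower on HFD in WT, and 13 were higher and 2 lower in KO, with none at 0 in any library. Their summed level was 389 to 481 FPKM in WT on NCD, 320 to 433 in KO on NCD, 1630 to 2046 in WT on HFD and 2302 to 2845 in KO on HFD. Of 9 markers of lipid-associated macrophages, 7 were higher and 1 lower in WT, and 8 and 1 in KO. Of 7 fibroblast and progenitor markers, 3 were higher in WT and 6 in KO. Of 5 mesothelial markers, 5 were lower in WT and 0 in KO (limma; 1 at an unadjusted p below 0.05 in KO). Of 10 adipocyte markers, 1 (Lep, which encodes leptin) was higher in each genotype, 6 were lower in WT and 8 in KO, and the sum of the 10 was 19609 to 23889 FPKM on NCD and 7021 to 15741 on HFD. In bulk tissue more cells of a type and more RNA per cell cannot be told apart, and the part of cell composition in the lysosomal differences was not tested. The members' sum divided by the level of Adgre1, which encodes the macrophage protein F4/80, was 313 to 615 on NCD and 64.8 to 89.0 on HFD, and Adgre1 had the widest diet difference of the 15 markers. Divided by Csf1r, which encodes the receptor of macrophage colony-stimulating factor, it was 93.6 to 168 on NCD and 70.2 to 82.6 on HFD. Ratios to the other macrophage markers were not computed. Mertk and Cd163 were lower on HFD while the members' sum was higher, so ratios to either would be higher on HFD. The direction of such a ratio therefore depends on the marker chosen, and lysosomal RNA per macrophage cannot be read from it.

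**Figure D1:**
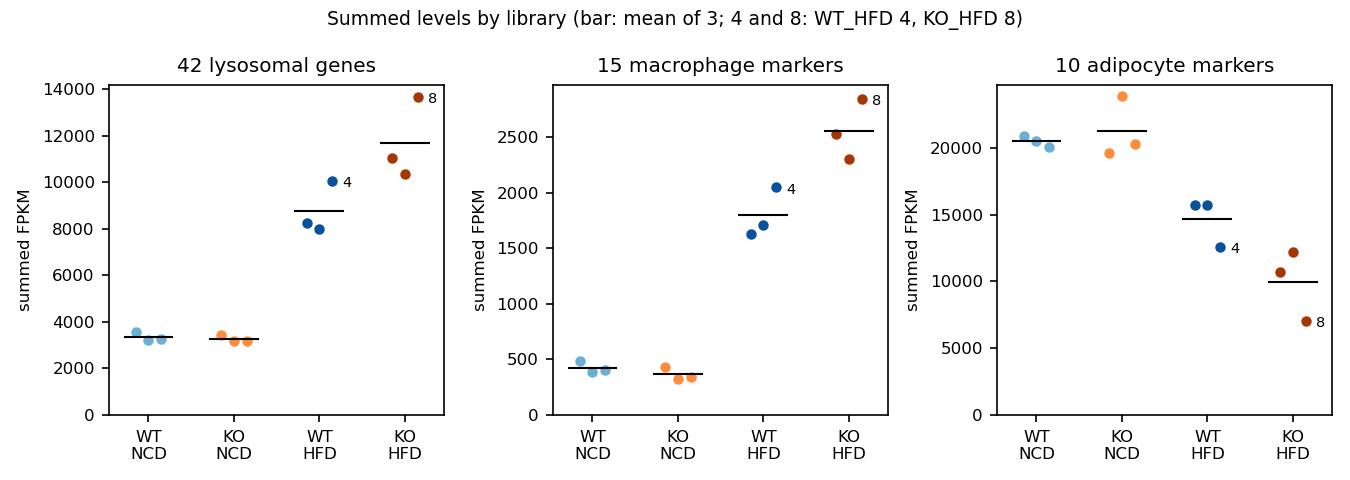
Summed FPKM per library (linear axes from 0) of the 42 lysosomal genes, 15 macrophage markers and 10 adipocyte markers in the 4 groups; points are libraries and bars are means of 3. Lysosomal sums were 3167 to 3559 on NCD and 8001 to 13673 on HFD, highest in KO_HFD 8, which also had the highest macrophage and the lowest adipocyte sum.

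The widest change was in Atp6v0d2, which encodes the d2 form of the V0 subunit d, known from osteoclasts, macrophages and dendritic cells (chr4:19876838-19922566, GRCm38.p6). Its level was 0.627, 0.676 and 1.05 FPKM in the WT NCD libraries and 0.599, 0.365 and 0.570 in the KO NCD libraries. It was 86.1, 81.4 and 124 FPKM in WT on HFD and 150, 133 and 192 in KO on HFD. The 6 NCD libraries were all at 1.05 FPKM or below, and the 6 HFD libraries all at 81.4 or above. The log2 difference between diets was 5.76 ± 0.17 (SE) in WT (adjusted p = 1.0e-08) and 6.71 ± 0.17 in KO (adjusted p = 2.4e-09, limma). On the FPKM scale the group means stood 124-fold apart in WT and 310-fold in KO, and the number of fragments behind the low NCD values is unknown.

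Its paralogue Atp6v0d1 encodes d1, the form found in most cells. It was at 59.9 to 62.8 FPKM in WT on NCD, 59.2 to 65.8 in KO on NCD, 71.1 to 75.1 in WT on HFD and 74.9 to 77.8 in KO on HFD. It rose by 0.26 ± 0.06 on the log2 scale in WT (adjusted p = 0.0036) and by 0.30 ± 0.06 in KO (adjusted p = 0.00090, limma). Of the summed FPKM of both d genes, Atp6v0d2 therefore made up 1.27% ± 0.38 (SD, n = 3) in WT and 0.834% ± 0.247 in KO on NCD. On HFD its share was 56.6% ± 4.9 in WT and 67.3% ± 3.6 in KO. Shares on HFD and NCD differed by 60.9 percentage points, and no other of the 400 relabellings of diet within genotype but the mirror image gave as much (exact permutation test, two-sided p = 0.005, the smallest this design allows). On HFD every KO library, at 64.0% to 71.1%, was above every WT library, at 53.4% to 62.2% (exact permutation p = 0.1, the smallest that 3 against 3 can give).

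Other subunits of the V0 sector rose less. Atp6v0a1, which encodes the a1 form of the proton channel's stator arm, went from 31.7 ± 4.7 to 109 ± 13 FPKM in WT (log2 difference 1.75) and from 31.2 ± 3.6 to 131 ± 10 in KO (2.04; SD, n = 3). Atp6v0c, which encodes the proton-carrying ring protein, rose by 0.86 and 1.27 on the log2 scale, and Atp6v0b, another ring subunit, by 0.62 and 0.84. Atp6v0e rose by 0.36 and 0.31. All 6 V0 members were called higher in both genotypes, with adjusted p of 0.0046 or less (limma).

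In the V1 sector, which binds and splits ATP, 5 of 8 members were higher in WT and 7 of 8 in KO. Catalytic subunit A (Atp6v1a) rose from 24.6 ± 2.0 to 67.6 ± 12.5 FPKM in WT and from 22.0 ± 3.3 to 94.8 ± 20.0 in KO. Subunit B (Atp6v1b2), with which it forms the ATP-binding head, rose from 38.0 ± 1.8 to 130 ± 19 and from 36.3 ± 1.6 to 166 ± 27. Atp6v1c1 rose by 0.73 and 1.23 on the log2 scale, Atp6v1f by 0.38 and 0.55 and Atp6v1e1 by 0.18 and 0.29. The pump's subunits are present in fixed ratios in the assembled enzyme, whereas these log2 differences spanned -0.09 to 1.74 in WT and 0.24 to 2.15 in KO within V1.

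The V1 members that did not pass in WT were Atp6v1d, Atp6v1g1 and Atp6v1h. Atp6v1d (central stalk) was at 34.1, 32.2 and 33.0 FPKM in WT on NCD and 35.5, 39.2 and 39.8 in WT on HFD, with a log2 difference of 0.20 ± 0.09 (adjusted p = 0.072, limma). In KO it went from 31.0 to 34.3 FPKM on NCD to 40.0, 41.2 and 50.04 on HFD and passed (0.40, adjusted p = 0.0018). Atp6v1h (a regulatory subunit needed for ATP hydrolysis) was at 40.9, 35.4 and 35.9 in WT on NCD, at 34.8, 34.6 and 35.6 in WT on HFD, at 31.6, 33.6 and 32.6 in KO on NCD and at 38.9, 38.6 and 53.7 in KO on HFD. Its WT groups overlapped (-0.09 ± 0.11, adjusted p = 0.52) and its KO groups did not (0.40, adjusted p = 0.010, limma). The difference between its diet effects was 0.49 ± 0.16 (adjusted p = 0.18), and that of Atp6v1d was 0.20 ± 0.12 (adjusted p = 0.38, limma). Atp6v1g1 (peripheral stalk) passed in neither genotype, with WT libraries at 67.4, 77.2 and 71.0 FPKM (NCD) and 65.3, 68.0 and 76.4 (HFD), and KO libraries at 69.3, 70.8 and 66.2 (NCD) and 75.4, 71.9 and 99.1 (HFD). Both accessory subunits rose, Atp6ap1 by 0.40 and 0.68 and Atp6ap2, the prorenin receptor, by 0.73 and 1.14.

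Further pump genes outside the 42 were listed too, 11 in all, of which 7 were tested. In each genotype 2 of these 7 were higher and 2 lower. Among all tested genes 25.4% were higher and 25.3% lower in WT, and 34.6% and 26.2% in KO. Tcirg1, which encodes the a3 form that osteoclasts use, rose from 12.5 ± 1.6 to 60.1 ± 14.6 FPKM in WT (log2 difference 2.16) and from 12.3 ± 1.3 to 95.5 ± 22.1 in KO (2.84; SD, n = 3). Its share of the summed FPKM of the 4 subunit a genes was 22.4% and 22.9% in WT and KO on NCD and 32.6% and 39.4% on HFD, while that of Atp6v0a2 went from 18.7% and 18.1% to 7.54% and 5.72%, although Atp6v0a2 itself rose (0.37 and 0.44). Atp6v0e2 fell from 35.7 ± 1.5 to 11.8 ± 0.7 FPKM in WT and from 35.1 ± 3.4 to 8.92 ± 2.74 in KO, where Atp6v0e rose. The sum of both e genes was 126 FPKM (WT) and 129 (KO) on NCD and 129 and 126 on HFD. Atp6v1c2, a form of C found in few tissues, fell by 0.70 and 1.08 on the log2 scale, from 1.5 to 0.508 FPKM in WT and from 1.58 to 0.190 in KO. Subunits B and E came almost wholly from Atp6v1b2 and Atp6v1e1 in every library.

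**Figure D2:**
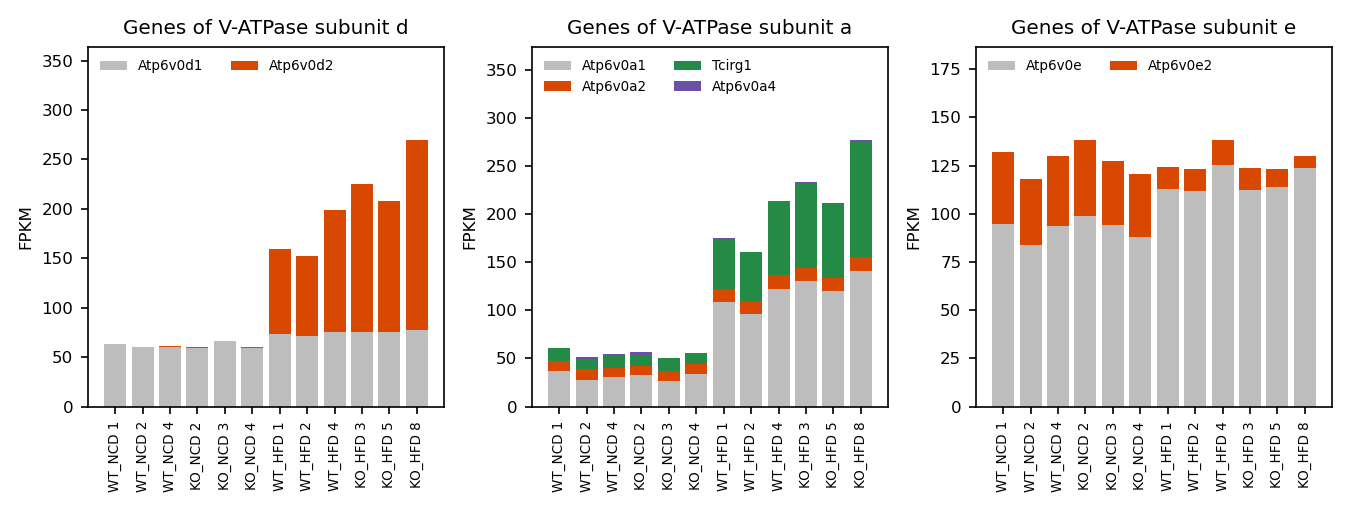
FPKM of the genes for V-ATPase subunits d, a and e, stacked in each of the 12 libraries (linear axes from 0; no error bars, since each bar is 1 library). Atp6v0d2 was 0.551% to 1.71% of the d sum on NCD and 53.4% to 71.1% on HFD, and the e sum held between 118 and 138 FPKM while Atp6v0e2 shrank.

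Of the 9 cathepsins, 8 were higher on HFD in each genotype. Ctss, an endosomal cysteine protease of antigen-presenting cells that trims the invariant chain, was at 42.7, 34.2 and 37.2 FPKM in WT on NCD and 39.0, 27.9 and 32.2 in KO on NCD. On HFD it reached 458, 448 and 672 in WT and 801, 687 and 1096 in KO, and no HFD library overlapped an NCD library. The log2 differences were 3.74 ± 0.20 (adjusted p = 5.1e-07) and 4.65 ± 0.20 (adjusted p = 4.9e-08, limma).

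Ctsk encodes cathepsin K, the collagen- and elastin-degrading protease of osteoclasts (chr3:95499210-95509387). It was at 10.1, 8.91 and 10.6 FPKM in WT on NCD and 10.4, 9.79 and 10.3 in KO on NCD, against 120, 111 and 119 in WT on HFD and 182, 196 and 237.9 in KO on HFD. Neither the diets nor, on HFD, the genotypes overlapped. It rose by 3.44 ± 0.09 in WT (adjusted p = 4.9e-09) and by 4.20 ± 0.09 in KO (adjusted p = 1.4e-09, limma).

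The aspartic protease cathepsin D (Ctsd), the second most abundant member on HFD in KO after Psap, was at 602, 494 and 478 FPKM in WT on NCD and 531, 464 and 490 in KO on NCD. It was at 1595, 1558 and 1882 in WT on HFD and 2082, 1955 and 2570 in KO on HFD, log2 differences of 1.68 and 2.14. Ctsz, Ctsb, Ctsl, Ctsa and Ctsh rose by 1.09 to 1.72 in WT and by 1.70 to 2.17 in KO. Ctsb, the broad cysteine protease often measured as a lysosomal marker, went from 293 ± 29 to 881 ± 98 FPKM in WT (SD, n = 3), and Ctsa, which protects the sialidase and beta-galactosidase in a complex, from 49.98 ± 3.02 to 123 ± 11.

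The exception was Ctsc, which encodes dipeptidyl peptidase 1, the activator of granule serine proteases of neutrophils, mast cells and cytotoxic lymphocytes. In WT its NCD libraries were at 35.8, 31.6 and 32.5 FPKM, and its HFD libraries at 23.7, 26.5 and 27.1, a fall of 0.36 ± 0.13 on the log2 scale (adjusted p = 0.042, limma). In KO its NCD libraries were at 28.8, 42.9 and 34.4, its HFD libraries at 36.8, 31.7 and 39.8, and these overlapped (0.04 ± 0.13, adjusted p = 0.80). The difference between these diet effects was 0.40 ± 0.19 (adjusted p = 0.28). The fall in WT no longer passed when any single WT library was left out, nor without KO_NCD 4 or KO_HFD 3, with a highest adjusted p of 0.13.

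**Figure D3:**
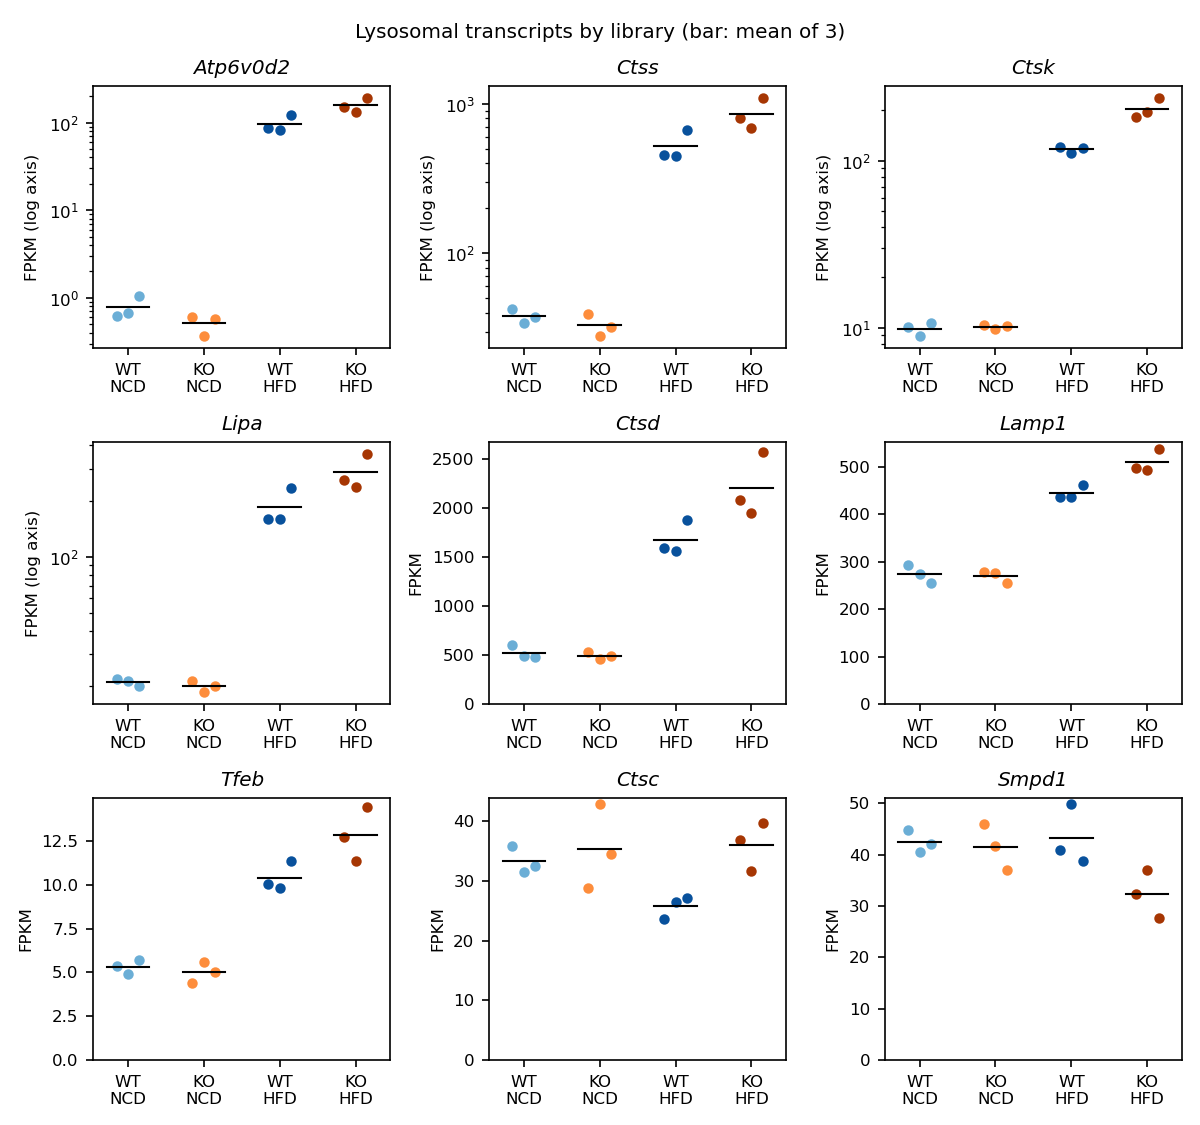
FPKM of 9 lysosomal genes in the 12 libraries; points are libraries, bars are means of 3, and the axes of Atp6v0d2, Ctss, Ctsk and Lipa are logarithmic while the others start at 0. The first 7 genes were higher in every HFD library than in every NCD library; Ctsc was at 23.7 to 27.1 FPKM in WT on HFD beside 31.6 to 35.8 in WT on NCD, and Smpd1 ran from 27.7 to 36.9 FPKM in KO on HFD beside 38.9 to 49.9 in WT on HFD.

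Among glycosidases, 4 of 5 rose in each genotype. Gusb, which encodes beta-glucuronidase, was at 28.1, 20.7 and 22.2 FPKM in WT on NCD and 26.2, 22.7 and 25.8 in KO on NCD, and at 93.6, 88.0 and 122 in WT on HFD and 139, 133 and 173 in KO on HFD. Its log2 difference was 2.05 ± 0.15 in WT and 2.52 ± 0.15 in KO. Hexa, which acts on gangliosides, rose by 1.57 and 1.98, the mannosidase Man2b1 by 1.25 and 1.78, and Glb1, beta-galactosidase, by 0.96 and 1.17. Gaa, the acid glucosidase that breaks down lysosomal glycogen, passed in neither genotype: 32.7, 27.7 and 28.8 FPKM in WT on NCD, 32.0, 31.9 and 31.3 in WT on HFD, 36.6, 28.3 and 28.8 in KO on NCD and 35.5, 34.5 and 34.9 in KO on HFD. Its groups overlapped between diets in both genotypes, with log2 differences of 0.10 ± 0.09 and 0.17 ± 0.09.

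Lipa encodes lysosomal acid lipase, which splits cholesteryl esters and triglycerides delivered to the lysosome. Its level was 21.9, 21.3 and 20.1 FPKM in WT on NCD and 21.5, 18.6 and 20.2 in KO on NCD, and 161, 161 and 236 in WT on HFD and 259, 240 and 360 in KO on HFD. The diets were far apart in both genotypes, with log2 differences of 3.06 ± 0.17 (adjusted p = 5.8e-07) and 3.75 ± 0.17 (adjusted p = 6.0e-08, limma). Psap, the precursor of the saposins that present sphingolipids to their hydrolases, was at 528, 483 and 507 FPKM in WT on NCD, 533, 475 and 497 in KO on NCD, 1513, 1399 and 1957 in WT on HFD and 2162, 1939 and 2802 in KO on HFD. Grn, which encodes progranulin, was at 122, 107 and 115 in WT on NCD, 112, 103 and 99.1 in KO on NCD, 289, 277 and 333 in WT on HFD and 399, 374 and 437 in KO on HFD. Both rose, Psap by 1.67 and 2.18 and Grn by 1.37 and 1.93. Asah1, acid ceramidase, rose by 0.80 and 1.26.

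Smpd1, which encodes acid sphingomyelinase, was the 1 member of this class that was not called higher in either genotype. In WT its NCD libraries were at 44.9, 40.6 and 42.1 FPKM, and its HFD libraries at 41.0, 49.9 and 38.9 (log2 difference 0.02 ± 0.12). In KO the NCD libraries were at 46.1, 41.7 and 37.0, the HFD libraries at 32.4, 36.9 and 27.7, a fall of 0.36 ± 0.12 on the log2 scale (adjusted p = 0.026, limma). The lowest NCD and highest HFD library of the KO mice were only just apart. Its diet effects differed between genotypes by -0.37 ± 0.17 (adjusted p = 0.28). The fall no longer passed without KO_NCD 2, KO_NCD 3, KO_HFD 3 or KO_HFD 8, with a highest adjusted p of 0.10.

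All 4 membrane proteins rose, by less than most hydrolases. Lamp1, a main glycoprotein of the lysosomal membrane, was at 292, 273 and 256 FPKM in WT on NCD, 277, 275 and 255 in KO on NCD, 437, 437 and 461 in WT on HFD and 497, 493 and 538 in KO on HFD. Its log2 differences were 0.70 ± 0.07 and 0.92 ± 0.07. Lamp2 rose by 0.53 and 0.85, and Scarb2, the receptor that carries beta-glucocerebrosidase to the lysosome, by 0.39 and 0.73. Mcoln1, the lysosomal cation channel TRPML1, moved least: it was at 14.8, 15.2 and 14.2 FPKM in WT on NCD, 14.7, 15.1 and 14.2 in KO on NCD, 16.2, 16.3 and 16.6 in WT on HFD and 18.9, 19.1 and 19.7 in KO on HFD. Its replicates lay close together and its groups did not overlap, at 0.14 ± 0.05 in WT (adjusted p = 0.031) and 0.37 ± 0.05 in KO (adjusted p = 8.1e-05, limma).

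The 3 MiT regulators were at low levels and all rose. Tfeb was at 5.36, 4.90 and 5.71 FPKM in WT on NCD, 4.40, 5.57 and 5.01 in KO on NCD, 10.03, 9.81 and 11.4 in WT on HFD and 12.7, 11.4 and 14.4 in KO on HFD. Tfe3 was at 13.9, 12.0 and 12.5 in WT on NCD, 12.6, 12.1 and 11.5 in KO on NCD, 20.9, 20.7 and 23.8 in WT on HFD and 26.1, 24.3 and 26.8 in KO on HFD. Mitf was at 3.30, 3.86 and 4.29 in WT on NCD, 4.43, 2.78 and 3.39 in KO on NCD, 7.65, 7.17 and 9.83 in WT on HFD and 12.0, 10.4 and 15.01 in KO on HFD. No HFD library of any of the 3 reached down to an NCD library of its genotype. The log2 differences in WT and KO were 0.85 and 1.21 for Tfeb, 0.72 and 1.03 for Tfe3 and 0.93 and 1.57 for Mitf. Tfec, the family's remaining gene and not among the 42, rose from 0.528 to 1.25 FPKM in WT and from 0.448 to 2.54 in KO (log2 differences 0.55 and 1.31). These factors are controlled largely by their location in the cell, which transcript levels do not show.

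Members whose promoter held the E-box had a median log2 difference of 0.70 in WT and 0.92 in KO (n = 11), and those without it 0.86 and 1.27 (n = 23). The ranges overlapped, at 0.10 to 1.68 in WT and 0.17 to 2.14 in KO with the E-box, and -0.36 to 3.74 and -0.36 to 4.65 without it. Ctss, Ctsk and Lipa, with the widest changes among these 34, had none in the window searched, and Lamp1, with 4, rose by 0.70 and 0.92. Whether the motif bears on the diet difference was not tested.

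**Figure D4:**
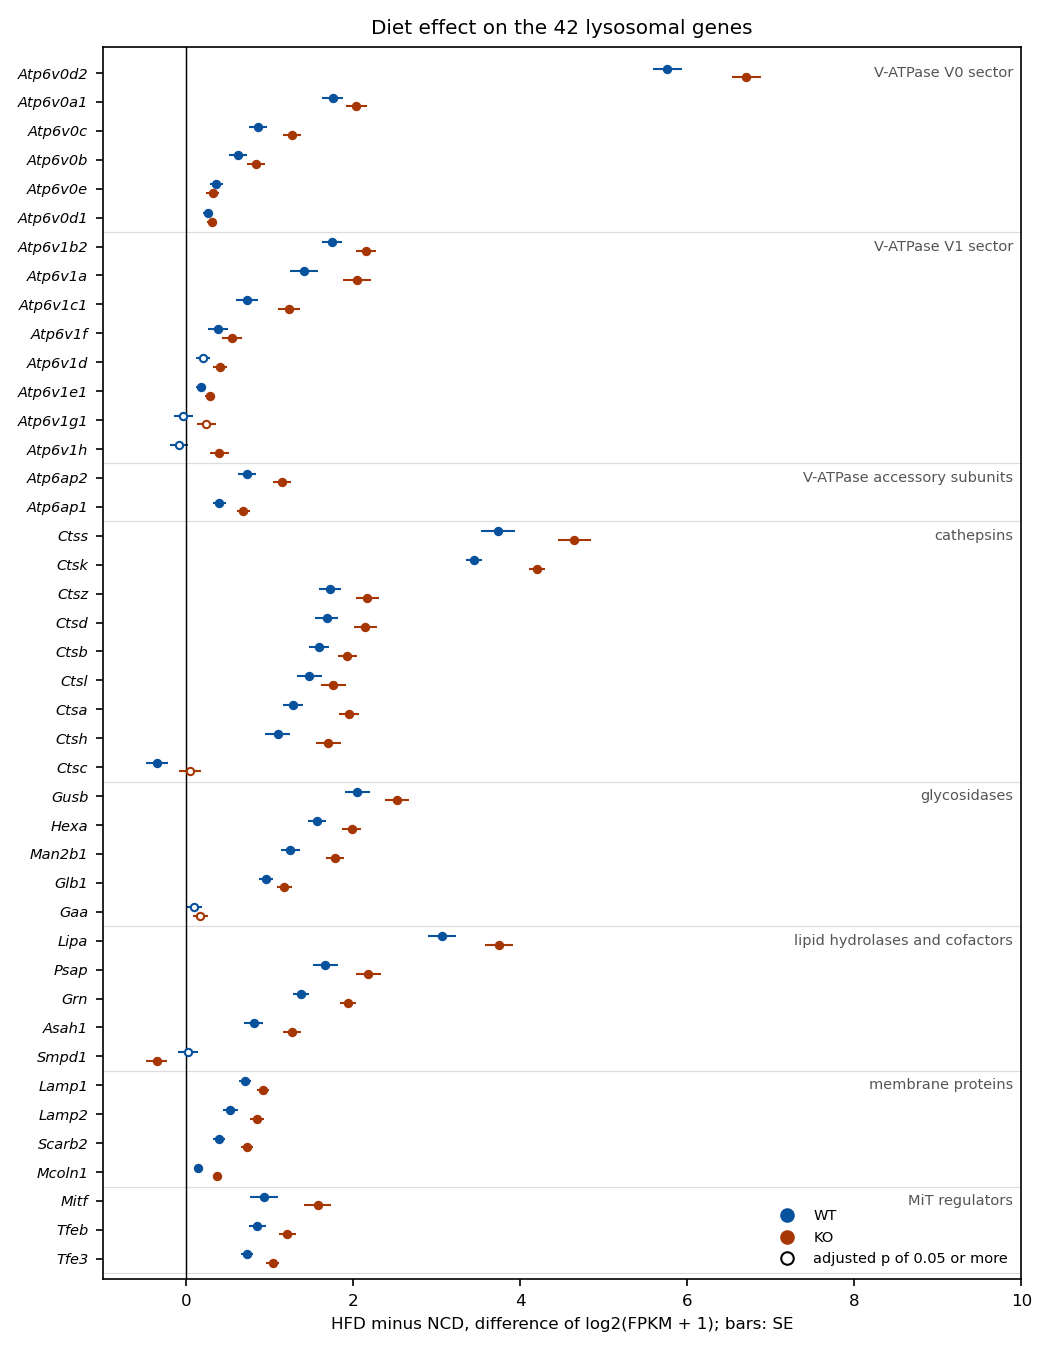
Diet effect (HFD minus NCD, difference of log2(FPKM + 1), bars: SE) of each of the 42 genes by class in WT (blue) and KO (brown); open points did not pass the test. Values ran from -0.36 for Ctsc to 5.76 for Atp6v0d2 in WT and from -0.36 for Smpd1 to 6.71 for Atp6v0d2 in KO.

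Most genes of the wider lysosome were also higher on HFD. Of 42 tested further hydrolases and cofactors, 29 were higher and 1 lower in WT, and 31 and 3 in KO, with a median log2 difference of 0.54 and 0.73. Lgmn, which encodes asparagine endopeptidase, rose from 37.3 ± 2.5 to 225 ± 29 FPKM in WT and from 31.2 ± 7.2 to 329 ± 45 in KO (SD, n = 3), and the exonuclease Pld3, lysozyme Lyz2 and Dnase2a rose by 2.07 to 2.53 and by 2.69 to 3.21. Of 34 further membrane and transport genes, 21 were higher and 2 lower in WT, and 22 and 3 in KO. Gpnmb, a lysosomal glycoprotein of lipid-laden macrophages, rose from 5.30 ± 1.12 to 361 ± 154 FPKM in WT and from 3.64 ± 0.58 to 724 ± 283 in KO; Cd68, Slc15a3 and Laptm5 also rose. Of 19 sorting receptors and adaptors, 10 were higher and 1 lower in WT, and 14 and 1 in KO. Igf2r, the mannose 6-phosphate receptor that sorts hydrolases, rose by 1.47 and 2.05, and Sort1, which encodes the sorting receptor sortilin, fell by 0.65 and 0.88 (named after its values were seen). Of the cysteine protease inhibitors 2 were tested, and Cstb, which encodes cystatin B, rose by 2.0 and 2.15.

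Of 17 nutrient-sensing genes of the lysosomal surface, 5 were higher in WT, and 8 were higher and 2 lower in KO, with a median of 0.08 and 0.13. Their share was 29.4% higher in WT, beside 25.4% of all tested genes. In KO 47.1% were higher and 11.8% lower, beside 34.6% and 26.2% of all tested genes. Fnip2, a folliculin partner, moved most, by 1.29 and 2.02. Of 25 autophagy genes, 5 were higher and 6 lower in WT, and 8 and 7 in KO, with medians of -0.02 and 0.06. These are shares of 20% and 24% in WT and 32% and 28% in KO, close to those over all tested genes, 25.4% and 25.3%, and 34.6% and 26.2%. Uvrag, Vps18, Sqstm1 and Atg12 rose by 0.48 to 0.76 in WT and by 0.45 to 1.10 in KO. The Atg8 family genes Map1lc3b, Gabarapl1 and Gabarapl2 were lower in both genotypes, by 0.22 to 0.36 in WT and by 0.20 to 0.33 in KO (named after their values were seen).

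On NCD, no lysosomal member was called different between KO and WT. The count called was 0 of 42, with 0 at an unadjusted p below 0.05 (limma), beside 5.1% of all tested genes, and 0.0418% of all tested genes higher and 0.00697% lower. Every KO library was below every WT library for 3 members, Atp6v0d2, Atp6v1h and Scarb2, and above it for none, where 7.96% of all genes were lower and 1.49% higher without overlap. The members' median log2 difference was -0.05, the same as over all genes.

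On HFD, 41 of 42 members had a positive log2 difference (KO minus WT), of which Atp6v0e was 0.00 and turned negative (-0.04) with median centring, and Ctsk was the 1 member that passed the test. Among all genes 0.6% were called higher and 0.202% lower. Ctsk was 1.76-fold higher in KO than in WT on HFD (0.80 ± 0.09 on the log2 scale, adjusted p = 0.0052, limma), after 9.86 ± 0.87 and 10.1 ± 0.3 FPKM (SD, n = 3) on NCD. It passed in every fit that left out a library, but with only the 2 HFD groups in the fit its adjusted p was 0.081. Over all alternatives it ran from 0.00020 to 0.081.

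The other members had differences from -0.41 ± 0.12 (Smpd1) to 0.71 ± 0.17 (Atp6v0d2) and 0.71 ± 0.20 (Ctss), with a median over all 42 of 0.35 beside 0.03 over all tested genes. At an unadjusted p below 0.05 there were 33 of 42, where 24.3% of all tested genes were below it. Every KO library lay above every WT library for 26 members and below for 1, Smpd1, and 15 overlapped, where 19.0% of all genes were higher and 11.7% lower without overlap. Lipa differed by 0.62 ± 0.17 (adjusted p = 0.080), Gusb by 0.55 ± 0.15 (0.079), Grn by 0.43 ± 0.09 (0.059) and Mcoln1 by 0.22 ± 0.05 (0.062). Atp6v0e and Atp6v0d1, at 0.00 and 0.05, were nearest to no difference.

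How many passed turned on WT_HFD 4. It was the highest WT HFD library for 38 members, where it was so for 42.7% of all genes, and without it 17 members were called higher. Calls over all genes went from 86 higher and 29 lower to 694 and 258 without it. KO_HFD 8 was the highest HFD library for 39 members, where it was so for 30.5% of all genes. The same libraries had the highest macrophage marker sum of their groups, 2046 and 2845 FPKM, and the lowest adipocyte marker sum, 12587 and 7021. With library weights estimated from the data, which were 0.474 for WT_HFD 4, 0.397 for KO_HFD 8 and 8.71 for KO_HFD 3, 36 members were higher and 1 lower, along with 3931 and 2080 genes in all.

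Marker levels also differed between KO and WT on HFD. Of 15 macrophage markers 1, Fcgr1, was called higher, and all KO sums (2302 to 2845 FPKM) were above all WT sums (1630 to 2046). Of 9 lipid-associated macrophage markers 1, Itgax, was called higher, with sums of 4346 to 4567 FPKM in WT and 4970 to 5959 in KO. The largest parts of that sum were Cd36 and Apoe, with means of 1742 and 1165 FPKM in WT and 1757 and 1338 in KO. Neither was called (limma), with log2 differences of 0.01 and 0.20. Of 7 fibroblast and progenitor markers 1, Pdgfra, was called higher, with sums of 1095 to 1141 in WT and 1296 to 1418 in KO. Of 9 mast cell markers 8 were tested and 6 were called higher in KO, with sums of 49.5 to 76.1 FPKM in WT and 152 to 161 in KO. Of 7 neutrophil markers 2 were tested and 0 were called (limma; 1, S100a8, at an unadjusted p below 0.05), with sums of 41.4 to 44.0 in WT and 19.7 to 32.5 in KO. Of 10 adipocyte markers 0 were called (limma; 6 at an unadjusted p below 0.05), with log2 differences from -0.81 to -0.27. Their sums were 12587 to 15741 FPKM in WT and 7021 to 12185 in KO. Log2 differences of the 5 endothelial markers ran from -0.53 to -0.31 and those of the 5 mesothelial markers from 0.48 to 0.97, with 0 called in either list. The part of these cells in the difference of the lysosomal genes was not tested.

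**Figure D5:**
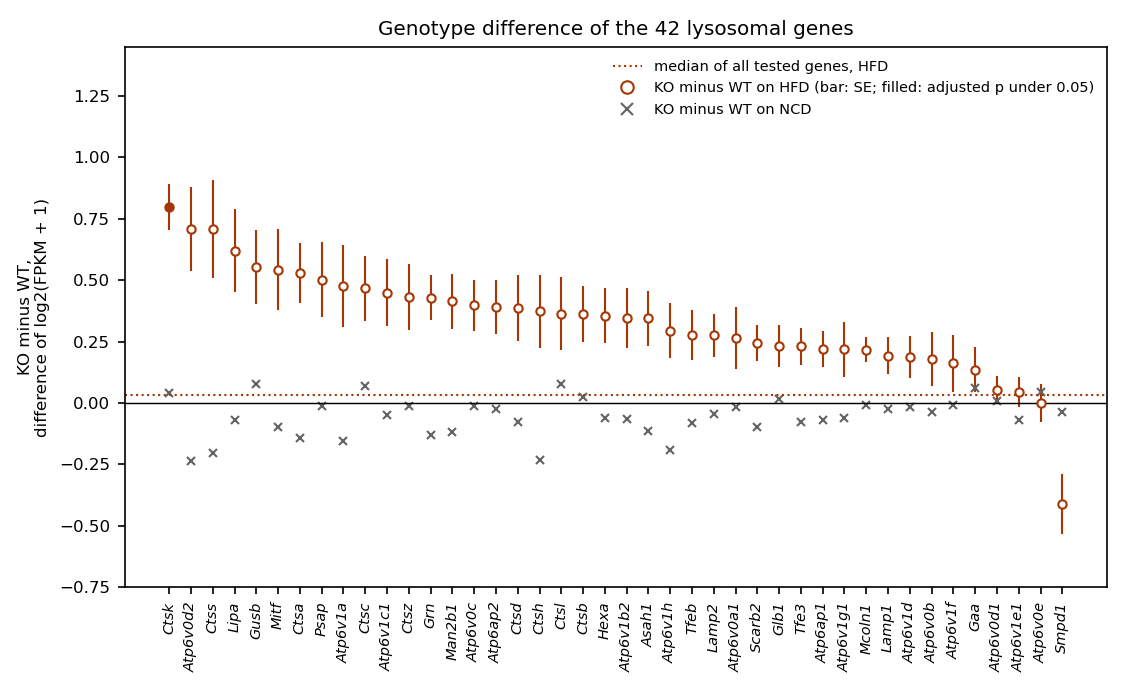
KO minus WT, difference of log2(FPKM + 1), for each of the 42 genes on HFD (circles with SE; filled: adjusted p under 0.05) and on NCD (crosses, no error shown); the dotted line is the median of all tested genes on HFD, 0.03. The HFD values run from 0.80 for Ctsk to -0.41 for Smpd1, and the NCD values from -0.24 to 0.08.

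Whether the diet effect differed between genotypes was tested as an interaction. It was 0 of 42 members called, where 0.265% of all genes were higher and 0.00697% lower. At an unadjusted p below 0.05 (limma) there were 27, where 18.5% of all genes were below it. The median was 0.40 beside 0.09 over all genes. The interaction of Ctsk was 0.76 ± 0.13 (adjusted p = 0.052). That of Atp6v0d2 was 0.94 ± 0.24 (adjusted p = 0.14) and that of Ctss 0.91 ± 0.28 (adjusted p = 0.17).

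In the wider lysosomal lists, Galc, which encodes galactosylceramidase (0.45 ± 0.08, adjusted p = 0.029), and Ctns, the cystine exporter (0.29 ± 0.05, adjusted p = 0.032), were higher in KO on HFD. Hexa, among the 42, differed by 0.36 ± 0.11 (adjusted p = 0.10, limma).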

How the data were processed

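RNA of gonadal fat was extracted with TRIzol and made into stranded TruSeq mRNA libraries, per the labels' protocols. Tools listed in the submitters' processing notes, with no settings, are HISAT2 2.1.0, StringTie 1.3.4d, Trimmomatic, bcl2fastq 2.20.0 and DESeq2, on build mm10. The authors deposited 1 table of FPKM per gene and library. It carries no counts, so depth is unknown and no count model was run. Of 30268 gene IDs, 30196 matched RefSeq (GRCm38.p6). Columns were tied to groups by their header names.

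Genes at 1 FPKM or more in at least 3 of 12 libraries (14340) were tested with limma 3.58.1 (R 4.3.3) on log2(FPKM + 1), with a mean-variance trend and 4 group means (8 residual degrees of freedom). P-values were adjusted by Benjamini-Hochberg within each comparison, with a threshold of 0.05. Fold changes on this scale understate those of low genes. The fit was tried on simulated data for the WT diet comparison only, and the other comparisons were not simulated. Per-library values are given for the 6 widest diet changes, members called between genotypes, regulators, 6 chosen members and those that fell or did not pass. From other lists up to 4 genes are named by size in WT, and 1 item is not reported here. Members and lists were chosen with earlier results of these data known. Tables and figures used Python 3.11.15, pandas 2.3.3 and matplotlib 3.10.9.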

Additional observations from a re-analysis of the deposited data

How the results depend on the processing

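No paired analysis was possible because the table's column numbers are not the replicate numbers of the sample titles, so columns carry a group and no pairing. Over the alternatives run, up to 38 members were called in the WT diet comparison and 35 to 40 in KO, and 0 between genotypes on NCD. The fit without the 3 NCD libraries rich in ciliated epithelium transcripts kept 1 WT library on NCD, and its counts are left out here. Over all genes the other fits gave 2436 to 4258 higher and 2259 to 4783 lower in WT. In KO they gave 3316 to 5788 higher and 2449 to 5188 lower, with 8662 to 30267 genes tested. Of the called members, 33 of 37 in WT and 38 of 39 in KO passed in every fit that left out a library, those lost being Atp6v1e1, Atp6v1f, Ctsc and Mcoln1 in WT and Smpd1 in KO. Members lower on HFD numbered 0 with no filter in both genotypes, 0 in WT with mitochondrial genes removed, 0 in KO with only the groups compared, and 0 to 1 when a library was left out.

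Between genotypes on HFD the count called, all higher, was 2 with no filter (with Mcoln1), 4 with a mean of 5 FPKM required (with Ctsa, Grn and Mcoln1), 0 with only the groups compared, and 1 to 17 when a library was left out, with 17 without WT_HFD 4 and 3 without KO_HFD 5. Calls over all genes were 104 higher and 32 lower with no filter and 144 and 88 with the mean filter. They were 23 and 1 with only the groups compared, 694 and 258 without WT_HFD 4 and 161 and 101 without KO_HFD 5. With array weights 37 members were called, of which 36 higher and 1 lower, beside 3931 and 2080 of all genes. The interaction was called for 1 member with the mean filter, 12 (all higher) with array weights and 0 to 1 when a library was left out, the 1 without KO_NCD 2. Its calls over all genes were 39 higher and 3 lower with the mean filter, and 857 and 130 with array weights. Without KO_NCD 2 they were 175 and 6. The causes were not tested.

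Some log2 differences that were not called turned sign. Median centring gave -0.0170 for Smpd1 in WT, -0.1051 for Ctsc in KO, -0.0427 for Atp6v0e between genotypes on HFD, and interactions of -0.0651 for Atp6v0d1 and -0.0378 for Gaa. Quantile normalization gave -0.0193 for Smpd1 in WT, -0.0743 for Ctsc in KO and an interaction of -0.0098 for Atp6v0d1. Without the 3 ciliated libraries, the WT diet values were 0.0496 for Atp6v1g1, -0.0412 for Gaa and -0.0608 for Smpd1, that of Ctsc in KO was -0.0952 and the interaction of Atp6v0e 0.0601. Atp6v1g1 in WT was 0.0074 with mitochondrial genes removed, and Atp6v0e on HFD -0.0083 with array weights. With a library left out, the diet value ran from -0.1044 to 0.0127 for Atp6v1g1 and -0.0883 to 0.0888 for Smpd1 in WT and from -0.0952 to 0.1857 for Ctsc in KO. Atp6v0e ran from -0.0433 to 0.0527 on HFD and from -0.0897 to 0.0123 for the interaction. The difference in Atp6v0d2 share between diets ran from 59.4 to 61.7 percentage points. Depth is unknown, so the counting error of low genes could not be given.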

Other observations

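Most tested osteoclast markers rose with Atp6v0d2, Ctsk and Tcirg1. Of 7 osteoclast markers 4 were tested, and 3 were higher and 1 lower on HFD in each genotype. Ocstamp, Calcr and Oscar were too low to be tested. Mean Ocstamp went from 0.050 to 0.796 FPKM in WT and from 0.031 to 0.883 in KO. Mean Oscar went from 0.121 to 0.105 in WT and from 0.119 to 0.059 in KO. Calcr was at 0 in every library except KO_HFD 8, at 0.00576. In WT and KO, Dcstamp, which encodes a cell fusion protein, rose by 2.16 and 2.97 on the log2 scale and Tnfrsf11a, which encodes the receptor RANK, by 1.97 and 2.52. Nfatc1, a transcription factor of osteoclast formation, rose by 0.30 and 0.70. Mmp9, which encodes a gelatinase, fell by 1.79 and 1.07, with KO_HFD 5 at 3.76 FPKM beside 0.633 and 0.636 in the other KO libraries on HFD. Outside that list, Acp5, which encodes tartrate-resistant acid phosphatase, the classical stain of osteoclasts, averaged 181 FPKM (WT) and 224 (KO) under NCD, against 141 and 112 under HFD. It fell by 0.97 in KO (adjusted p = 0.00030, limma), and its difference in WT was -0.36 (adjusted p = 0.078). Acp5 was picked after its values were seen.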
